A study of Cyanidioschyzon merolae with 8 samples.

Results

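Triacylglycerol is the storage oil of cells, and its glycerol backbone receives acyl chains from a series of acyltransferases. The 7 genes described here encode such enzymes in the unicellular red alga Cyanidioschyzon merolae. They were chosen by gene ID out of 5091 gene IDs in the authors' deposited table, by the step to which each is assigned. Of these, 2 are glycerol-3-phosphate acyltransferases (GPAT), 1 is a lysophosphatidic acid acyltransferase (LPAT) and 4 are diacylglycerol acyltransferases (DGAT).

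Transcripts were measured by poly(A)-selected RNA sequencing in wild-type cells of strain 10D, with 8 libraries in 4 groups of 2 biological replicates. All cultures had grown at 42 °C and pH 2.3 in unbroken light, 100 µmol m-2 s-1 in strength. In the blue experiment, cells spent 36 h in darkness and were then either sampled as the dark control or lit for 30 min with blue light (15 µmol m-2 s-1). In the red experiment, dark-kept cells either served as a dark control of their own or had 30 min of red light. The sources used here state neither the intensity of the red light nor how long the cells of that experiment were dark. The light meters were read at 365 nm for blue and 630 nm for red light.

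GPAT places the first acyl chain on glycerol-3-phosphate, and LPAT adds the next to give phosphatidic acid, which is also the precursor of membrane lipids. A phosphatase then removes the phosphate, and DGAT adds the last acyl chain, the step that commits diacylglycerol to oil. Many microalgae deposit triacylglycerol in lipid droplets when growth is limited, for example by lack of nitrogen, whereas red algae also hold much of their carbon reserve as starch in the cytosol. DGAT enzymes of eukaryotes fall into unrelated protein families, and the families of the 4 genes are not assigned here.

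The authors' deposited table gives 1 value per condition in FPKM (read fragments corrected for the length of the transcript and for library size), with the replicates already combined. No spread between replicates can therefore be printed, and the library depth is unknown. Each value is relative to the other transcripts of its library, so a change in the total mRNA of a cell cannot be seen. A gene is called changed if it was tested and has a q-value, the authors' p-value adjusted for many tests, under 0.05. The smallest of the authors' p-values, 5e-05, goes with q = 0.00045, so genes that share this q-value are not ranked by it. The error given with a log2 ratio is the SE implied by the authors' test statistic, that is, the ratio divided by the statistic. It is wider than their p-values imply, which correspond to normal scores a median of 1.41 times the statistic under blue light and 1.46 times under red light. Over all IDs the median FPKM was 94.2 and 92.6 in the dark and the light of the blue experiment, and 104 and 93.0 in those of the red experiment.

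Under each light most of the tested members changed, and they did so in both directions. By the authors' deposited table, 5 of the 6 members tested under blue light passed the threshold, where 40.6% of 4517 tested genes did. Of these 5, CMJ162C and CMB069C rose and CMK217C, CMQ199C and CME100C fell, against 22.2% of all tested genes that rose and 18.4% that fell. Under red light 4 of 6 passed, where 42.0% of 4447 tested genes did. CMJ162C rose, and CMA017C, CMK217C and CME100C fell, against 14.9% that rose and 27.1% that fell. Of the genes tested in both comparisons, CMK217C and CME100C fell in both, as did 11.6% of all. At a q-value under 0.01, 3 members passed under each light, against 27.9% of all genes under blue and 28.5% under red light. Asking for at least 2-fold change also left 3 under each, against 31.1% and 29.7%. By Benjamini-Hochberg adjustment within each comparison 6 passed under blue light, where 42.0% did, and 4 under red light, where 44.1% did. At an unadjusted p-value under 0.05 the members' counts were again 6 and 4, against 49.2% and 52.0%. With at least 10 FPKM asked for in both conditions they were 5 and 4, against 39.6% and 41.5%. With shares of that size in the background, the counts say little about the list, and the sizes and directions of single members carry the description.

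Over the 6 members with values, the median log2 ratio was -0.70 under blue light, where that of 4502 tested genes with a ratio was -0.01. Under red light it was -0.91, where that of 4438 genes was -0.26. Members ran from -3.12 to 1.51 under blue light and from -2.07 to 0.74 under red light, so the list did not move as a block. The dark controls are separate cultures for each light, and the 2 comparisons share no libraries.

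**Figure D1:**
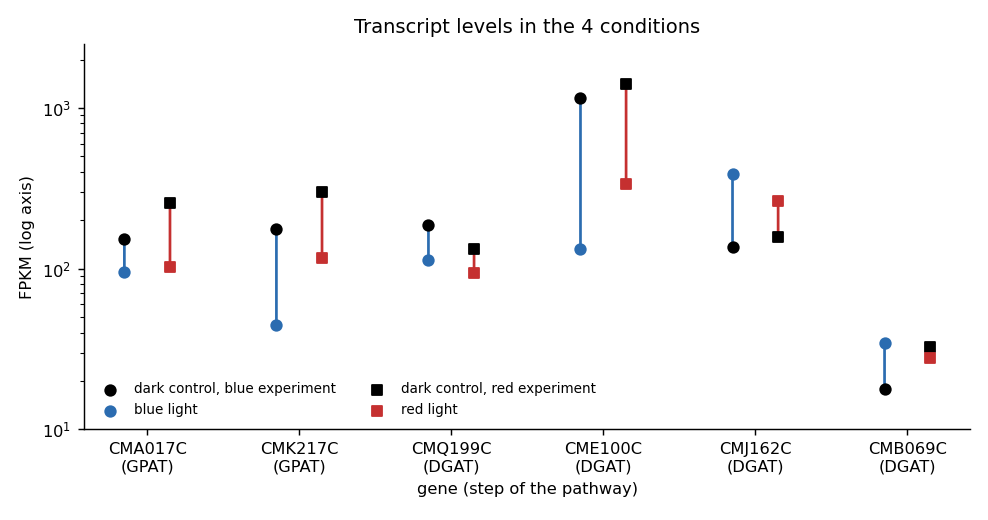
FPKM on a log axis of the 6 members with values, grouped by gene and step. Black points are the dark controls and coloured points the lit cells, with circles for the blue and squares for the red experiment, each point being the authors' combined value of 2 replicates. CME100C stood at 1145 and 1407 FPKM in the dark and fell under both lights, while CMJ162C stood higher in both lit conditions than in either dark control.

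Of the GPAT genes, CMK217C fell under both lights. It lies on chromosome 11 at 593256 to 595279, as deposited, in a build that the sources used here do not name. Its FPKM in the authors' deposited table was 177 in the dark control and 44.3 under blue light, and in the red experiment 298 dark and 117 lit. Both lit values lay below both dark values. The fall was 3.99-fold under blue light, a log2 ratio of -2.00 with an implied SE of 0.45 and q = 0.00045 in the authors' deposited table. Under red light it was 2.55-fold, a log2 ratio of -1.35 with an implied SE of 0.47 and q = 0.00146. Among all genes with a ratio, 3.20% had a lower ratio under blue light and 9.04% under red light.

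CMA017C, the other GPAT gene, lies on chromosome 1 at 49956 to 51628. The authors' deposited table lists it at 153 FPKM in the dark control and 95.3 under blue light, and in the red experiment at 255 dark and 103 lit. Its lit values were nearly level between the lights, and its dark values differed 1.67-fold between the experiments. Under red light it fell 2.48-fold, a log2 ratio of -1.31 with an implied SE of 0.42 and q = 0.00045 in the authors' deposited table. Under blue light the log2 ratio was -0.68 with an implied SE of 0.42 and q = 0.0559 in the same table, just outside the threshold. Adjusted by Benjamini-Hochberg within the blue comparison alone, the same p-values of the authors' deposited table give 0.0474.

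FPKM is scaled to length, and on that basis the levels of the GPAT genes were set side by side. Whether differences due to length remain in these levels, or in those of the DGAT genes below, was not tested. In the dark controls CMK217C held 53.7% and 53.8% of their summed FPKM in the blue and the red experiment. Under red light it held 53.1%, and both genes fell by about the same factor. Under blue light its share was 31.7%, and CMA017C stood 2.15 times as high as CMK217C. The summed FPKM of both went from 330 to 140 under blue light and from 553 to 219 under red light, a fall of 2.36-fold and 2.52-fold. These sums have no test.

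The LPAT gene, CMJ021C, was listed at 0 in all 4 conditions and was not tested by the authors. It lies on chromosome 10 at 68900 to 69510 and shares its locus with no other ID. An exact 0 may also stand for an estimate that failed, and 79 of 4793 nuclear IDs, 1.65%, were at 0 throughout. Among nuclear IDs with loci of 400 to 800 bp, as this gene has, 19 of 851 were. Its transcript level is therefore not known from these data, and no direction can be given for the LPAT step.

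The DGAT genes divided. CME100C fell steeply under both lights, CMJ162C rose under both, CMQ199C fell under blue light, and CMB069C rose under blue light. The most abundant DGAT transcript of dark-kept cells was thus the one that fell most.

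CME100C lies on chromosome 5 at 278745 to 280267. In the authors' deposited table it was at 1145 FPKM in the dark control and 132 under blue light, and in the red experiment at 1407 dark and 335 lit. Its dark values exceeded those of 96.9% and 99.0% of the tested genes in the blue and red experiments. The next highest members in the dark exceeded 71.5% and 84.4%. The fall was 8.68-fold under blue light, a log2 ratio of -3.12 with an implied SE of 0.58 and q = 0.00045 in the authors' deposited table. Red light gave a fall of 4.20-fold, a log2 ratio of -2.07 with an implied SE of 0.64 and the same q-value in that table. Only 55 of 4502 genes had a lower ratio under blue light and 76 of 4438 under red light. Among 4390 genes with a ratio under both lights, 13 including CME100C had ratios at least as low in both comparisons.

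CMJ162C, on chromosome 10 at 449167 to 450101, went the other way. The authors' deposited table gives it 136 FPKM in the dark control and 388 under blue light, and in the red experiment 158 dark and 265 lit. Both lit values stood above both dark values. It rose 2.86-fold under blue light, a log2 ratio of 1.51 with an implied SE of 0.44 and q = 0.00045 in the authors' deposited table. The rise under red light was 1.67-fold, a log2 ratio of 0.74 with an implied SE of 0.43 and q = 0.0297 in the same table, which passes 0.05 and not 0.01. It was the only member called higher under both lights, where 10.6% of the 4403 genes tested in both were.

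CMQ199C lies on chromosome 17 at 490231 to 491950. It was at 186 FPKM in the dark control and 113 under blue light, and in the red experiment at 133 dark and 93.4 lit, in the authors' deposited table. Of the members with values, its range over the 4 conditions was among the narrowest, at 2.00-fold. Its log2 ratio under blue light was -0.72 with an implied SE of 0.43 and q = 0.0497 in the authors' deposited table, just inside the threshold. Under red light the ratio was -0.51 with an implied SE of 0.41 and q = 0.123 in that table. The red dark control was also lower than the blue, by a log2 difference of -0.48, whereas the other 5 members were higher there.

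CMB069C, on chromosome 2 at 175201 to 178324, is the longest member, at 3123 bp in RefSeq, and had the lowest level of those with values. In the authors' deposited table it was at 17.7 FPKM in the dark control and 34.2 under blue light, and in the red experiment at 32.7 dark and 27.7 lit. From 5.03% to 9.96% of the tested genes stood lower in each condition. It rose 1.93-fold under blue light, a log2 ratio of 0.95 with an implied SE of 0.47 and q = 0.0161 in the authors' deposited table. Its log2 ratio under red light was -0.24 with an implied SE of 0.43 and q = 0.540 in the same table. Of its 4 values, that of the blue dark control stands apart from the other 3, and the red dark control was 1.85 times as high.

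**Figure D2:**
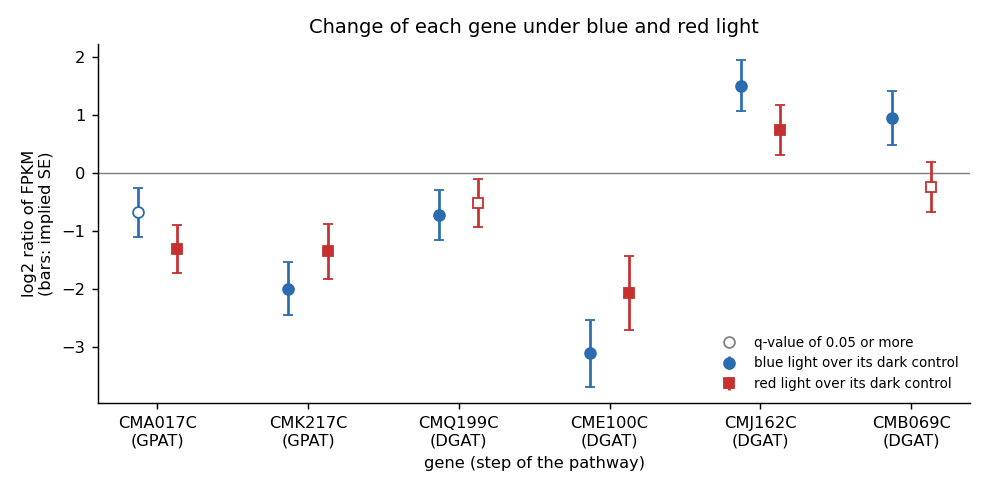
Log2 ratio of FPKM, light over its own dark control, for the 6 members with values, with blue circles for blue and red squares for red light. Bars are the SE implied by the authors' statistic, and open symbols mark q-values of 0.05 or more. CME100C and CMK217C lie below 0 and CMJ162C above 0 under both lights.

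Because CME100C fell while CMJ162C rose, the make-up of DGAT transcripts changed. In dark cells of the blue experiment CME100C held 77.1% of the summed FPKM of the 4 genes, CMQ199C 12.6%, CMJ162C 9.14% and CMB069C 1.19%. Blue light left CME100C with 19.8% and raised the share of CMJ162C to 58.2%. In dark cells of the red experiment CME100C held 81.3% and CMJ162C 9.15%, and under red light 46.5% and 36.7%. CMQ199C held 7.70% and CMB069C 1.89% of the red dark sum, so the shares of these lesser genes differed between the dark controls by over 1.5 times. CME100C led in both dark controls, and the lit cells differed in which gene led.

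CME100C was 8.43 and 8.88 times as high as CMJ162C in dark cells of the blue and the red experiment. Under blue light the order turned, with CMJ162C 2.94 times as high as CME100C. Under red light CME100C was still 1.26 times as high. These ratios compare levels within a condition, so the scaling between experiments does not enter them. They have no test, and no replicate spread is known for them.

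Summed over the 4 genes, DGAT transcripts went from 1485 to 667 FPKM under blue light and from 1731 to 721 FPKM under red light. The sums fell 2.23-fold and 2.40-fold, near the falls of the GPAT sums. Without CME100C, a split chosen after the values had been seen, the other 3 genes together went the other way. Their sum was 340 dark and 535 FPKM lit in the blue experiment, and 324 dark and 386 FPKM lit in the red, which is 1.57 and 1.19 times the dark value. The fall of CME100C was thus larger than that of the whole DGAT sum.

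**Figure D3:**
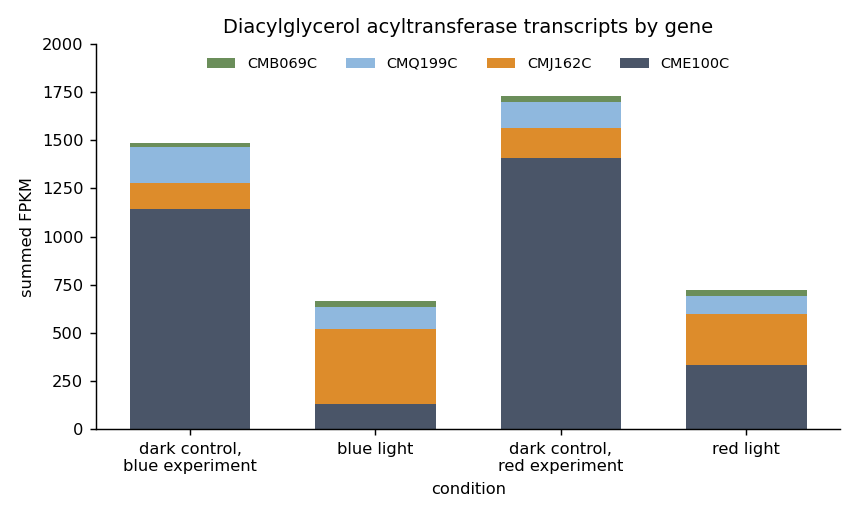
Summed FPKM of the 4 DGAT genes in each condition, with the bars divided by gene and the axis starting at 0. Each bar adds the authors' combined values, so it has no error. CME100C fills 77.1% and 81.3% of the dark bars, and CMJ162C fills 58.2% of the blue light and 36.7% of the red light bar.

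The responses to the lights were then compared member by member, as the red log2 ratio minus the blue. The difference was 1.05 for CME100C and 0.64 for CMK217C, whose falls were smaller under red light. It was -0.77 for CMJ162C, whose rise was smaller under red light. For CMA017C it was -0.63, the fall being the larger under red light, for CMQ199C 0.21, and for CMB069C -1.19. Ranges of the difference, nominally of 95%, were taken from the implied SE of both ratios. They were -0.65 to 2.74 for CME100C and -2.45 to 0.07 for CMB069C, and those of all 6 members held 0. The implied SE is wider than the authors' p-values imply, so by those p-values the ranges are too wide. A range that barely held 0, such as that of CMB069C, might leave it out with a narrower SE. That all ranges held 0 therefore does not show that the responses to the lights were alike. These ranges are no test, and each as computed leaves room for a difference of more than 2-fold.

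The lights were not given at a known equal intensity, and the experiments began from different dark levels. Between the dark controls, red minus blue, the log2 difference ran from -0.48 for CMQ199C to 0.89 for CMB069C with a median of 0.52, where that of 4390 genes was 0.18. Both GPAT genes were higher in the red dark control, by 0.74 for CMA017C and 0.75 for CMK217C. Between the lit conditions the widest differences were those of CMK217C and CME100C, which stood 2.63 and 2.54 times as high under red light. In the other direction CMJ162C under red light was at 0.683 of its level under blue light. The lit levels of the other 3 members differed by a log2 difference of -0.31 to 0.11. The sources used here do not say if the experiments were scaled together, so the light and the experiment cannot be told apart in these differences.

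**Figure D4:**
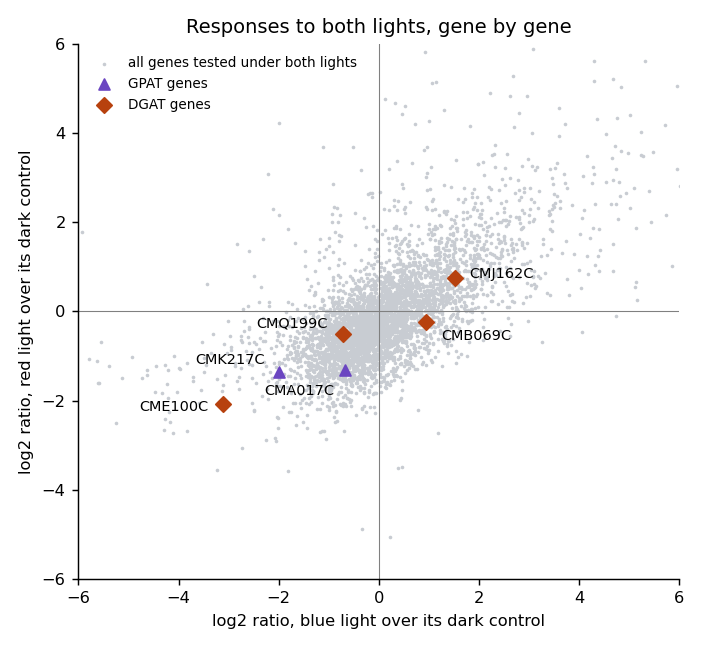
Log2 ratio under red light against that under blue light for 4390 genes tested in both comparisons, with the GPAT genes as triangles and the DGAT genes as diamonds. The axes end at 6, which leaves 22 genes outside. CME100C and CMK217C lie at the lower left, where 13 and 60 genes, each counted with itself, were at least as low under both lights. CMJ162C lies at the upper right, where 390 were at least as high, and CMB069C above 0 on the blue axis and just below 0 on the red axis.

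Genes of different length had different median ratios under red light, and the members run from 609 to 3123 bp in RefSeq, where nearly all gene lengths are those of the coding sequence. The 200 tested nuclear genes nearest in length to CMB069C had a median red log2 ratio of -0.77, and those nearest to CMJ162C -0.15. Set against such genes, CMB069C stood at 0.53 under red light, above 0, and CMA017C at -0.88. CME100C, CMK217C and CMJ162C kept their directions, at -1.88, -0.94 and 0.90. CMQ199C, not called under red light, kept its direction too, but its ratio shrank from -0.51 to -0.14. Under blue light the medians of genes of like length lay between -0.05 and 0.17, and no member changed direction. How far length shaped the red values was not tested.

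Across the 4 conditions, profiles were compared by the Euclidean distance of log2 FPKM centred on each gene's mean, over 4390 genes. With 4 points a profile this is a description, and the conditions of an experiment share its scaling. CMK217C was the 44th nearest of 4389 genes to CME100C, at a distance of 0.97, and they act at different steps. In the same order CMJ162C was at rank 3666. Seen from CMK217C, CME100C was the nearest member, at rank 317. The distance is not scaled to the size of a change, so fewer genes lie near a steep profile such as that of CME100C. A like distance of 0.98, between CMA017C and CMQ199C, ranked 1604 from CMA017C. For each of the remaining 4 members, the nearest other member ranked between 649 and 1724 by its distance. The list is so short beside 4389 genes that the genes nearest to any member would mostly lie outside it. The ranks were not set against those of lists drawn at random, so they do not show whether members are more alike than other genes.

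The genes most like CME100C were CMI136C, CMO108C and CMP230C, at distances of 0.42 to 0.46. CMI136C had log2 ratios of -3.55 under blue and -1.76 under red light. Closest to CMK217C were CMQ453C, CMJ049C and CMS335C, at 0.14 to 0.17. To CMJ162C the nearest were CMH261C, CMT331C and CMR284C, at 0.09 to 0.14, and CMH261C had log2 ratios of 1.43 under blue and 0.67 under red light. The nearest of CMA017C were CMQ462C, CMS218C and CMK297C, those of CMQ199C were CML244C, CMT350C and CMT357C, and those of CMB069C were CMI236C, CMQ035C and CMN188C. Ranked instead by Pearson correlation over the 4 conditions, 2 of the 3 genes named for CMB069C and none of those named for the other members were again among the nearest 3.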

How the data were processed

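Per the labels' protocols, oligo(dT) beads enriched mRNA, and TruSeq libraries were read from both ends, 75 bp each. No step that keeps strand is mentioned, so reads from opposite strands of 1 locus may be mixed. Cuffdiff, TopHat, TopHat2 2.0.5, Trimmomatic 0.32 and FastQC 0.11.5 are the tools listed in the submitters' processing notes. No build is named in the sources used here.

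The authors deposited expression as FPKM, with 1 value per condition over both replicates. For each gene they tested, the authors deposited a p-value and a q-value, and the set of tests behind the latter is not given. The test statistic that the authors deposited, a score, had the sign of the log2 ratio in all genes with both, and its size ranked genes as the p-values did, with Spearman's rho of -0.987 in both comparisons across the 3845 and 3805 genes above the smallest p-value (genes are not independent replicates). The 663 and 634 genes tied at that value, 5e-05, could not be ranked in this check, and members are among them.

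From these values log2 ratios without a pseudocount, sums, shares, ranks and distances were computed with scipy 1.17.1, pandas 2.3.3 and numpy 2.4.6 in Python 3.11.15, and drawn with matplotlib 3.10.9. The code was tested on simulated data. No count test could be made, and 1 ID that names no gene was left out. RefSeq gene lengths (assembly ASM9120v1) were matched by locus tag to 4752 IDs, and that table gives no gene descriptions, so other genes of the pathway were not listed. Members, lists and comparisons were chosen with earlier results of these data known. The text names the 7 members, for each the 3 genes nearest in profile, and the neighbours on the chromosome called under both lights; exceptions are marked where they stand.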

Additional observations from a re-analysis of the deposited data

How the results depend on the processing

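Under blue light 3 members passed a q-value of 0.01 in the authors' deposited table in place of 5 at 0.05, and also 3 when at least 2-fold change was asked for, each time CMK217C, CME100C and CMJ162C. Under red light 3 passed in each case in place of 4, CMJ162C being the gene lost. With Benjamini-Hochberg adjustment within each comparison, or with unadjusted p-values under 0.05, 6 passed under blue and 4 under red light, and asking for 10 FPKM in both conditions removed none. A pseudocount of 1 moved the 12 log2 ratios by at most 0.04 and one of 10 by at most 0.28, with no change of direction, and the authors' calls were not made again on these scales. Centring on the median of all tested genes moved them by at most 0.26 and turned the uncalled red ratio of CMB069C to 0.02, and against genes of like length it was 0.53. Leaving out CME100C reversed the log2 ratio of the DGAT sum, from -1.15 to 0.65 under blue and from -1.26 to 0.25 under red light. Without CMK217C the GPAT sum stood at -0.68 and -1.31 in place of -1.24 and -1.33. Both of these were added after the data had been seen. No paired analysis was possible because the table holds 1 combined value per condition, and for the same reason no replicate could be left out. Sequence relatives of the members were not analysed here. With depth unknown, no counting error can be given, which weighs most on CMB069C, the lowest of the measured members.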

Other observations

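The genes next to the members on their chromosomes were also measured. Of the 14 IDs listed next to a member, all tested, 1 rose and 3 fell under blue light at a q-value under 0.05 in the authors' deposited table, where 22.2% of all tested genes rose and 18.4% fell. Under red light 4 fell, where 27.1% of all did, and the other 10 were not called. These falls are near the background, so the counts say nothing particular about neighbours, and those of CMJ021C have no member value to be set against.

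On both sides of CME100C the ratios were below 0 under both lights. CME101C, 824 bp away, fell from 97.1 to 23.3 FPKM in the blue and 91.9 to 12.2 FPKM in the red experiment, with q = 0.00045 in each comparison of the authors' deposited table. CME099C, 1320 bp away, had log2 ratios of -1.06 under blue light with q = 0.176 and -1.02 under red light with q = 0.0108 in that table. CMA019C, 2779 bp from CMA017C, fell under both lights by the authors' deposited table, from 93.1 to 42.3 FPKM with q = 0.00204 and from 220 to 34.5 FPKM with q = 0.00045. The genes on either side of CMQ199C, at 593 and 674 bp, were not called under either light. Their ratios too were below 0 under both lights, so this was not particular to CME100C. They were -0.54 and -0.58 under blue light and -0.22 and -0.15 under red light. CMJ161C, beside CMJ162C, was at 32.4 and 70.8 FPKM in the dark and under blue light with q = 0.144 in the authors' deposited table. In the red experiment it was at 14.5 FPKM dark and 34.8 FPKM lit, a log2 ratio of 1.27 with q = 0.239 there, so its ratios had the sign of those of CMJ162C without passing the threshold. CMJ163C, on the other side, fell under blue light, from 331 to 169 FPKM with q = 0.0209 in that table, and had a log2 ratio of -0.58 under red light with q = 0.111. CME099C, CMJ161C and CMJ163C were named after their values were seen.

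The blue dark control of CMB069C was low, and so was that of the gene on one side of it but not of the gene on the other. CMB066C, 2264 bp away and named after its values were seen, was at 7.65 FPKM in the dark control and 46.9 under blue light, with q = 0.00045 in the authors' deposited table. In the red experiment it was at 45.4 FPKM dark and 30.9 FPKM lit, with q = 0.105 there. For CMB069C and CMB066C the blue dark control was the lowest of the 4 values. That also held for CMJ162C and for the gene before CMK217C, both on other chromosomes, so it is not particular to this place. CMB070C, 4755 bp away on the other side and also named after its values were seen, differed. It was at 75.3 FPKM in the blue dark control and lower, at 52.1 FPKM, under blue light. How many of all genes had their lowest value in the blue dark control was not counted, and a shared cause was not tested.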
